A study of Homo sapiens with 6 samples.

Results

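The loci of 5 platelet genes, VWF, SELP, THBS1, F13A1 and TUBB1, were described across 2 lists of accessible chromatin. The members were the ATAC-seq peaks that overlapped, by at least 1 bp, fixed hg19 windows around these genes: chromosome 12 from 6.045 to 6.250 Mb for VWF, chromosome 1 from 169.545 to 169.615 Mb for SELP, chromosome 15 from 39.855 to 39.905 Mb for THBS1, chromosome 6 from 6.130 to 6.335 Mb for F13A1 and chromosome 20 from 57.580 to 57.615 Mb for TUBB1. This rule gave 24 members among 127153 control peaks and 23 among 112610 of shHMGA1. ATAC-seq marks open DNA by where the Tn5 transposase inserts adapters. The cells were labelled DAMI, an established human leukaemia line annotated as MPN/AML (myeloproliferative neoplasm or acute myeloid leukaemia). Of 6 samples, 3 received a control lentivirus and 3 a lentivirus against HMGA1 (shHMGA1), and every sample was therefore infected. HMGA1 is a non-histone protein that contacts AT-rich stretches of DNA through its AT hooks, and the comparison addresses what its silencing does to open chromatin. The series also names a second line, SET-2, and whether libraries of it entered the lists is not stated. Each group was available as 1 peak list without values per sample or read depth, so no difference below has a replicate check or a p-value. The residual level of HMGA1 and the identity of the line were not tested, since the lists hold no expression.

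Platelets are shed by megakaryocytes, which fill them with granules and build the cytoskeleton that shapes them. VWF encodes von Willebrand factor, the large adhesive protein of alpha granules that tethers platelets to injured vessel walls. SELP encodes P-selectin, an alpha-granule membrane protein that moves to the surface on activation and binds leukocytes. THBS1 encodes thrombospondin-1, an abundant alpha-granule glycoprotein that also acts as an inhibitor of new vessel growth. F13A1 encodes the A subunit of coagulation factor XIII, the transglutaminase that crosslinks fibrin and is carried mainly in the platelet cytoplasm. TUBB1 encodes beta-1 tubulin, the tubulin isoform of the marginal microtubule ring that keeps platelets disc-shaped. VWF and SELP are also active in endothelial cells, and THBS1 in many cell types, so an open site at these genes is not by itself a mark of the platelet lineage.

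The RefSeq promoters of 4 of the 5 members are shown because HMGA1 binds AT-rich DNA and because GATA and ETS factors act at megakaryocyte genes. They are the 250 bases before the annotated gene start of SELP, THBS1, F13A1 and TUBB1, read along the gene on build GRCh38.p14. VWF had no entry in the table used. SELP and F13A1 lie on the minus strand, and THBS1 and TUBB1 on the plus strand. Capitals mark the words searched, on both strands. For GATA factors these were AGATAA as well as the form TGATAA. The core word of ETS factors is GGAA, searched also within its longer form CCGGAA, so the counts of these overlap. As AT-rich words served AAATTT besides the other palindrome AATATT.
SELP: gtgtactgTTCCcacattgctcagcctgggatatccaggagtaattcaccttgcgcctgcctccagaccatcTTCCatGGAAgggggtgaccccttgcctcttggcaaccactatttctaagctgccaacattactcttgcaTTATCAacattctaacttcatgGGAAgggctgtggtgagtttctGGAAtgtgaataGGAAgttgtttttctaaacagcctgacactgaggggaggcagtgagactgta
THBS1: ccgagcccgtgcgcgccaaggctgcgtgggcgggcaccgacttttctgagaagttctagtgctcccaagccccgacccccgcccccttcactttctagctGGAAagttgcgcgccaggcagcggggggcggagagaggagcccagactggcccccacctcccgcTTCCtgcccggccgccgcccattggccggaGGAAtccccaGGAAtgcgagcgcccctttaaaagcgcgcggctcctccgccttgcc
F13A1: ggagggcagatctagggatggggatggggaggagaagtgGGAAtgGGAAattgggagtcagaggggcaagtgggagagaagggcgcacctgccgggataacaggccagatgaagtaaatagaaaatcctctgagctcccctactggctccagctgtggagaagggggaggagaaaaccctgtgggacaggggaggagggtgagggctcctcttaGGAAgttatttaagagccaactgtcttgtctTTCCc
TUBB1: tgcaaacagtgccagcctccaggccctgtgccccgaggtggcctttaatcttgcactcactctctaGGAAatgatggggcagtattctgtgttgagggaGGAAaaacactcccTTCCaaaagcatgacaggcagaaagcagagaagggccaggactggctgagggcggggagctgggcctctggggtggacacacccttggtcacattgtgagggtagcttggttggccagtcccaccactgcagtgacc

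The promoters differed widely in base composition. GC content was 48.4% for SELP, 55.6% for F13A1, 57.6% for TUBB1 and 69.6% for THBS1, against a median of 58% over 35116 RefSeq promoter entries. SELP was the most AT-rich of the 4, and THBS1 was GC-rich. GGAA occurred 6 times in SELP, 4 times in THBS1, 4 times in F13A1 and 3 times in TUBB1, but 92.7% of all entries hold it at least once. The 1 GATA-type match was a TGATAA on the reverse strand of SELP (printed as TTATCA, beginning at position -108 from the gene start), and 6.66% of entries hold that word. The other GATA word, which 9.17% of entries hold, and the longer ETS word, which 14.5% hold, were not in these 4 stretches of 250 bases. Neither were the AT-rich words, held by 6.90% (AAATTT) or, for the other palindrome, 6.41% of entries. The promoters are on another build than the peaks and were not placed on hg19, so no peak is assigned to them.

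The number of open sites at the 5 loci was nearly the same in control and shHMGA1 cells. VWF held 6 control and 6 shHMGA1 peaks, SELP 6 and 5, THBS1 3 and 3, F13A1 3 and 3, and TUBB1 6 and 6. SELP alone differed in number, by 1 peak. The ratio of the totals, 23 to 24, was 0.958 with an exact 95% interval of 0.517 to 1.77, which includes the 0.886 of the whole lists. Intervals here cover counting error and treat neighbouring peaks as independent. Covered length was 13407 bp in control and 13586 bp in shHMGA1, a ratio of 1.01 against 0.909 for the whole lists.

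Density differed more between the loci than between the lists. The short TUBB1 window held 17.1 peaks per 100 kb in each list, and SELP held 8.57 in control and 7.14 in shHMGA1. THBS1 held 6 per 100 kb in each list, VWF 2.93 and F13A1 1.46. Whole-list means were 4.22 in control and 3.74 in shHMGA1, so the SELP, THBS1 and TUBB1 windows lay above them and the long VWF and F13A1 windows below. Open DNA covered 10.4% of the TUBB1 window in control and 9.49% in shHMGA1, but 0.455% and 0.658% of the F13A1 window. Densities depend on how far a window reaches beyond its gene. In RefSeq gene order (GRCh38.p14), F5 lies beside SELP, CTSZ precedes TUBB1, ATP5F1E overlaps the end of TUBB1, FSIP1 overlaps THBS1, and ANO2 and CD9 flank VWF. Which gene of a window a peak belongs to was not analysed here.

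**Figure D1:**
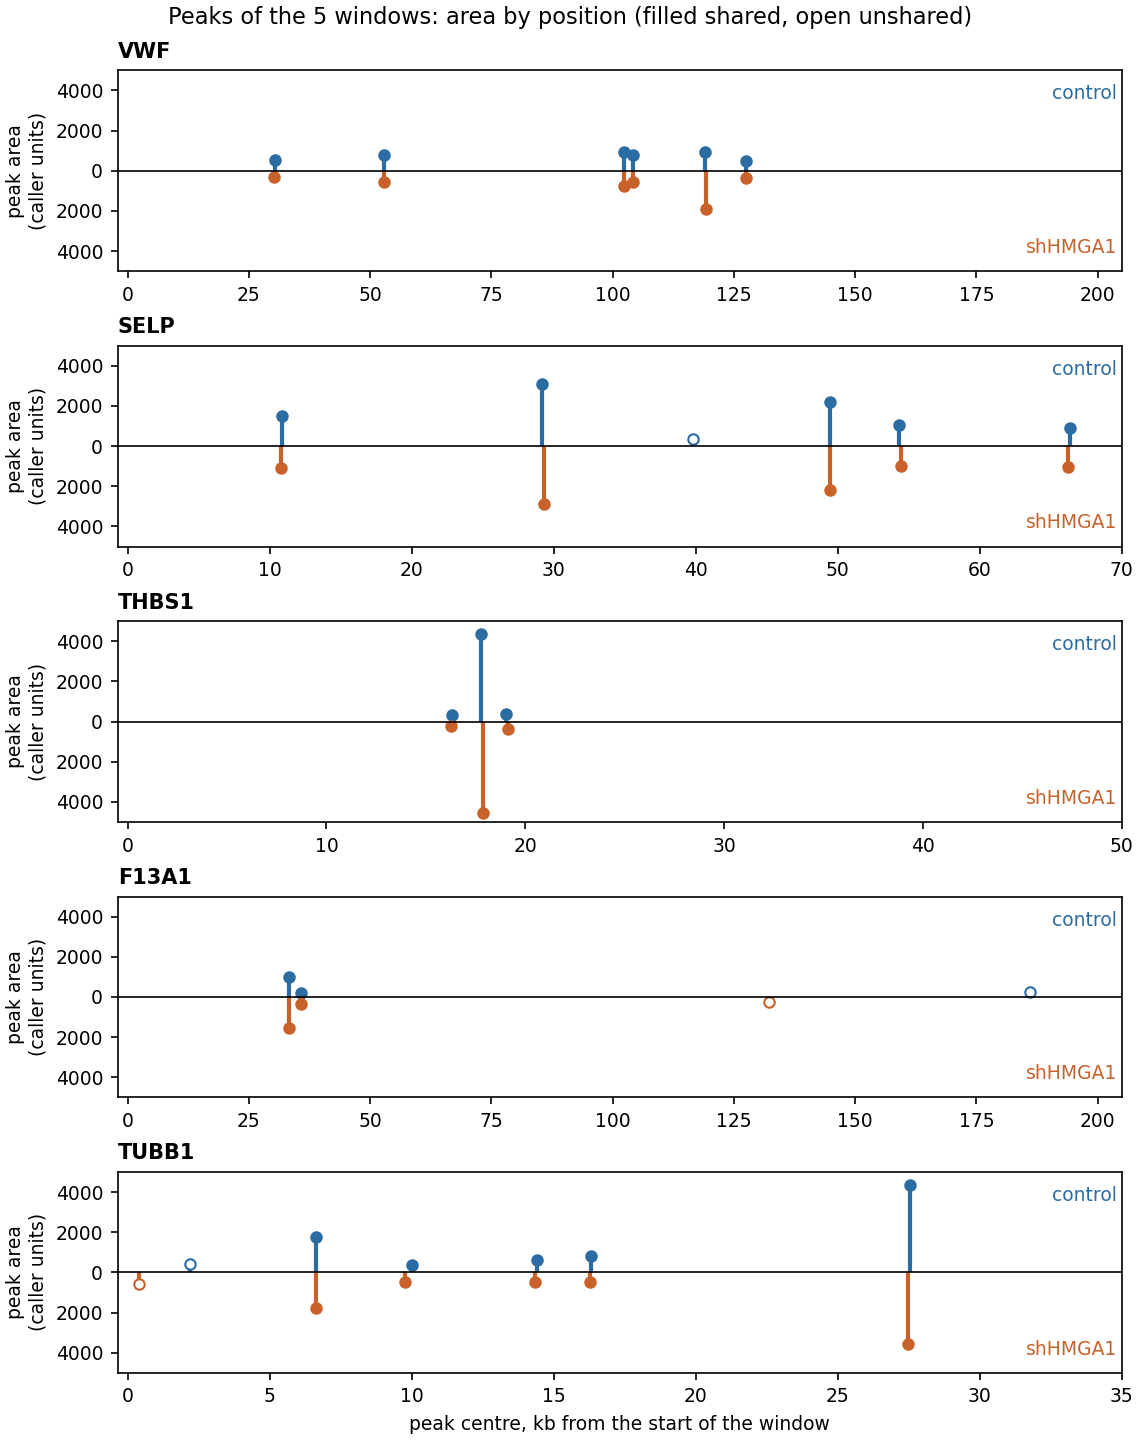
Peaks of the 5 windows, plotted by the distance of the peak centre from the window start in kb (x axis) and by area in the caller's units (y axis), with control upwards and shHMGA1 mirrored downwards. Areas are each list's own scale; filled points are peaks overlapped by the other list, and the open points are the 3 control-only and 2 shHMGA1-only peaks.

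Nearly all open sites were common to control and shHMGA1 cells. An shHMGA1 peak overlapped 21 of the 24 control peaks (87.5%, exact 95% interval 67.6 to 97.3), and a control peak overlapped 21 of the 23 shHMGA1 peaks (91.3%, interval 72.0 to 98.9). The unshared peaks were 3 of 24 in control (12.5%, interval 2.66 to 32.4), where the background over the whole list is 24.9%, and 2 of 23 in shHMGA1 (8.70%, interval 1.07 to 28.0), where it is 14.8%. Both intervals include the background, so these shares do not set the 5 loci apart from the lists. With a reciprocal overlap of 50% of both peaks required, 8 of 24 control and 7 of 23 shHMGA1 peaks were unshared. The whole-list shares under this stricter rule were not computed. These counts therefore have no background and cannot be set against 24.9% and 14.8%. By the 1 bp rule, VWF and THBS1 had no unshared peak in either list. With 6 and 3 peaks per list, this leaves upper limits of 45.9% and 70.8% by the exact interval. Under the reciprocal rule, 5 of 6 VWF and 2 of 3 THBS1 peaks were shared in each list.

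**Figure D2:**
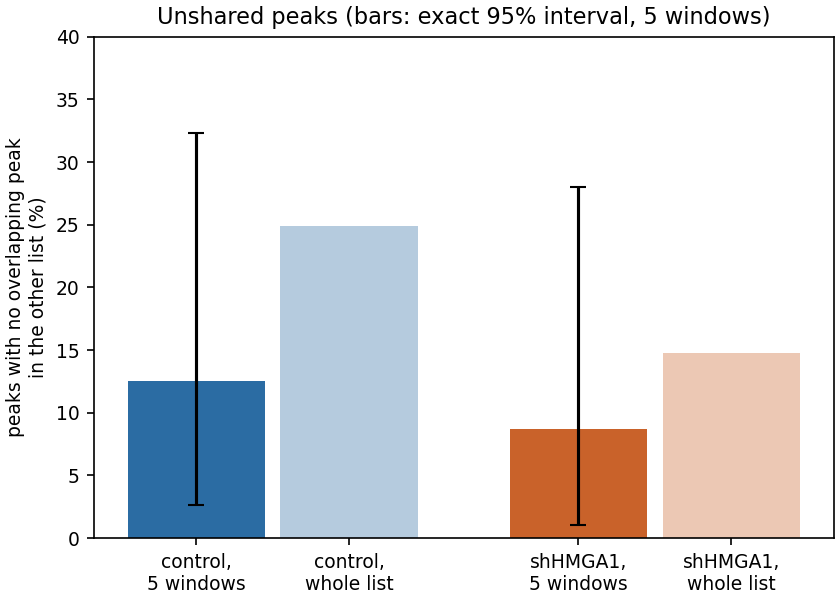
Share of peaks with no overlapping peak in the other list, in percent (y axis), for the 5 windows and for the whole lists. Error bars are exact 95% intervals for the 24 control and 23 shHMGA1 peaks; the whole-list shares of 24.9% and 14.8% lie inside them.

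The peak caller's area, the deposited signal value, was used to order peaks within a list. It sums significance over the width of a peak, and the smallest area in either list is just above 200.0. An area above the list median of 602 was reached by 15 of 24 control members (62.5%), and one above the list median of 616 by 11 of 23 shHMGA1 members (47.8%). By construction 50% of each list lies above its median, so the members were spread over the range of ordinary peaks. In the top 10% of their list by area were 2 control peaks, 1 at THBS1 and 1 at TUBB1, and 1 shHMGA1 peak, at THBS1.

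VWF, the von Willebrand factor gene, had 6 open sites, each present in both lists. In genome order they began in control at 6075131, 6097837, 6147142, 6149086, 6163684 and 6172402 on chromosome 12. They were of moderate size, with control areas from 460.1 to 934 and widths from 204 to 817 bp. The last 77.4 kb of the window, after the site ending at 6172605 in control and 6172580 in shHMGA1, held no peak of either list.

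The order of the VWF sites by summit significance differed between the lists. The site from 6163684 to 6164500 had the lowest summit of the 6 in control, with a −log10 p of 4.62, against 5.57 to 7.02 for the others. In shHMGA1 the overlapping peak, from 6163744 to 6164806, had the highest summit of the 6, at 7.01 against 4.55 to 6.28. It therefore went from last to first among the same 6 sites, while its summit position differed by 1 bp. By area it came first in both lists, with 934 in control and 1884 in shHMGA1. That was 21.4% of the summed area of the VWF window in control and 42.6% in shHMGA1. Each of the other 5 sites made up a smaller share in shHMGA1 than in control. Shares within a window are tied, since a larger share at 1 site leaves less for the others together. At their largest these shares were 20.8% in control and 16.7% in shHMGA1, both at the site beginning at 6147142 in control. The peak at 6163684 was 817 bp wide in control and 1063 bp in shHMGA1, a log2 width ratio of 0.38, with the end 306 bp further along. With only peaks at or above the joined median summit −log10 p of 5.24 kept in both lists, the site counted as shHMGA1-only. That follows from the summits given above, 4.62 and 7.01, which lie on either side of 5.24. It is therefore no further check of the difference. Each share rests on 1 list, and whether the libraries of a group varied as much was not tested. How often other sites of the whole lists differed as much was not computed.

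The widths of the other 5 VWF sites differed in both directions. The site at 6075131 was 351 bp wide in control and 167 bp in shHMGA1. That is a log2 ratio of -1.07, the lowest of all the pairs described here. Its area was 534 in control and 328 in shHMGA1. The neighbouring sites at 6147142 and 6149086 were 457 and 362 bp wide in control and 559 and 378 bp in shHMGA1, so they were slightly wider there. The sites at 6097837 and 6172402 were 228 and 204 bp wide in control and 207 and 190 bp in shHMGA1. The areas of the 4 sites at 6097837, 6147142, 6149086 and 6172402 were 765, 908, 757 and 460.1 in control. In shHMGA1 they were 544, 739, 583 and 346. The printed area was thus the lower in shHMGA1 at these 5 sites and the higher at the site beginning at 6163684 (934 and 1884). Areas are on a scale that belongs to each list and was not equalised. How many pairs of the whole lists had the lower area in shHMGA1 was not computed, so no change is read from these areas.

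SELP, the P-selectin gene, had several strong sites in both lists. Its largest peak by area lay on chromosome 1 from 169573808 to 169574591 in control (area 3083, summit −log10 p 9.62) and from 169573904 to 169574766 in shHMGA1 (2860.3 and 9.72). The next by area lay from 169594081 to 169594871 in control (2178) and from 169594108 to 169594858 in shHMGA1 (2193). These sites kept the leading places by area in both lists, with 34.0% and 24.0% of the window's area in control and 35.0% and 26.8% in shHMGA1. Another site, from 169555473 to 169556268 in control, had an area of 1519 there and 1103 in shHMGA1. It lies at the low-coordinate end of the window, the side on which the coagulation factor gene F5 neighbours SELP.

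The remaining SELP sites differed in extent or presence. The site from 169598990 to 169599615 was 626 bp wide in control and 414 bp in shHMGA1 (log2 ratio -0.60), because its start lay 231 bp further in. The site from 169610975 to 169611660 was 686 bp wide in control and 1016 bp in shHMGA1 (log2 ratio 0.57), and its summit differed by 187 bp. One site was narrower and the other wider, so the locus had no common direction. The site from 169584722 to 169584922, 201 bp wide with an area of 352, was in the control list only, with 9185 bp to the closest peak of the shHMGA1 list. It was the smallest SELP peak, and 28.6% of control peaks had a lower area.

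THBS1, the thrombospondin-1 gene, was dominated by 1 broad site under both conditions. That peak ran on chromosome 15 from 39871863 to 39873687 in control (1825 bp, area 4348, summit −log10 p 10.7) and from 39872049 to 39873736 in shHMGA1 (1688 bp, area 4531, summit 11.4). It held 86.3% of the window's area in control and 88.7% in shHMGA1. The site was the widest member of either list, and its summit differed by 17 bp between them.

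Small peaks flanked the THBS1 site on both sides. The one from 39871059 to 39871546 had an area of 332 in control, and in shHMGA1 an area of 219, close to the lower limit of the list. The one from 39873902 to 39874115 was 214 bp wide in control and 349 bp in shHMGA1, with areas of 358 and 357. Its log2 width ratio of 0.71 was the highest of all the pairs described here. All 3 sites lay within 3.06 kb in control and 3.28 kb in shHMGA1, and the following 30.9 kb and 30.7 kb to the window end held no peak. The locus therefore had 1 compact open block.

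F13A1, the factor XIII A subunit gene, was the most sparsely open locus. Its main site lay on chromosome 6 from 6162997 to 6163470 in control (474 bp, area 1001, summit −log10 p 7.12) and from 6162977 to 6163504 in shHMGA1 (528 bp, area 1534, summit 8.11). It held 69.6% of the window's area in control and 73.0% in shHMGA1. A weaker companion lay from 6165673 to 6165988 in control (area 208) and from 6165480 to 6165832 in shHMGA1 (area 338). Both sites were wider in shHMGA1, each with a log2 ratio of 0.16. The companion peaks had only 160 bp in common, and their summits differed by 9 bp.

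Each list also had 1 F13A1 peak of its own. The control-only peak, from 6316016 to 6316158, was 143 bp wide with an area of 230.4, the narrowest member. The shHMGA1-only peak, from 6261992 to 6262459, was 468 bp wide with an area of 229 and a summit −log10 p of 3.20. They lay 53556 bp apart, and both areas were near the lower limit of about 200.0 at which the lists end. Only 7.82% of control peaks and 7.19% of shHMGA1 peaks had a lower area. At the high-coordinate end of the window, the last 18.8 kb held no control peak and the last 72.5 kb no shHMGA1 peak. F13A1 reads towards lower coordinates, but its start was not placed on hg19. How much of these stretches lies upstream of the gene and how much within it was therefore not worked out. Of the bases open in either list at F13A1, 38.5% were open in both, against 63.0% for the whole lists.

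TUBB1, the platelet tubulin gene, lay in the window with the densest peaks. Its largest peak ran on chromosome 20 from 57607000 to 57608094 in control (1095 bp, area 4359.9, summit −log10 p 12.3) and from 57607023 to 57607936 in shHMGA1 (914 bp, area 3559, summit 12.4). It held 52.3% of the window's area in control and 48.4% in shHMGA1. This peak lies at the high-coordinate end, the side of ATP5F1E, a subunit gene of the mitochondrial ATP synthase, so it need not be a TUBB1 element. The second peak by area ran from 57586272 to 57587017 in control (area 1767) and from 57586237 to 57587012 in shHMGA1 (1787). Its width was 746 bp in control and 776 bp in shHMGA1, but the summits lay 382 bp apart, the largest summit distance among the pairs.

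The other 3 sites of the TUBB1 window were shared. Those from 57594216 to 57594638 and from 57596090 to 57596545 in control were 423 and 456 bp wide there, and 260 and 224 bp in shHMGA1. Their log2 ratios were -0.70 and -1.03, so both neighbours were narrower in shHMGA1. Their areas were 612 and 822 in control and 483 and 475 in shHMGA1. The site from 57589766 to 57590228 was 463 bp wide in control and 577 bp in shHMGA1, a change in the other direction (log2 ratio 0.32).

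At the low-coordinate end of the TUBB1 window each list had 1 peak of its own. The control-only peak ran from 57581953 to 57582413 (461 bp, area 428), and the shHMGA1-only peak from 57580102 to 57580673 (572 bp, area 585). They lay 1279 bp apart, on the side of CTSZ, which encodes the protease cathepsin Z. No unshared peak at any of the 5 loci had an area above the median of its list. Unshared peaks were small over the whole lists too. Their median area was 289 in control and 275 in shHMGA1, against 602 and 616 for all peaks. The low areas therefore do not set these loci apart.

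Across the 21 one-to-one pairs, widths showed no clear common direction. The shHMGA1 peak was the wider in 11 pairs and the narrower in 10, a share of 52.4% (exact interval 29.8 to 74.3), where the background over 83581 pairs of the whole lists is 44.8%. The median log2 width ratio was 0.06 (95% binomial interval of the median -0.14 to 0.16), against -0.03 over all pairs. The interval includes both 0 and the whole-list value. Widths differed by over 2-fold in 2 of 21 pairs (9.52%, against 8.97% of all pairs), those beginning at 6075131 at VWF and at 57596090 at TUBB1, both narrower in shHMGA1. By locus, 3 of 6 VWF pairs, 2 of 5 SELP pairs, 2 of 3 THBS1 pairs, 2 of 2 F13A1 pairs and 2 of 5 TUBB1 pairs were wider in shHMGA1.

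**Figure D3:**
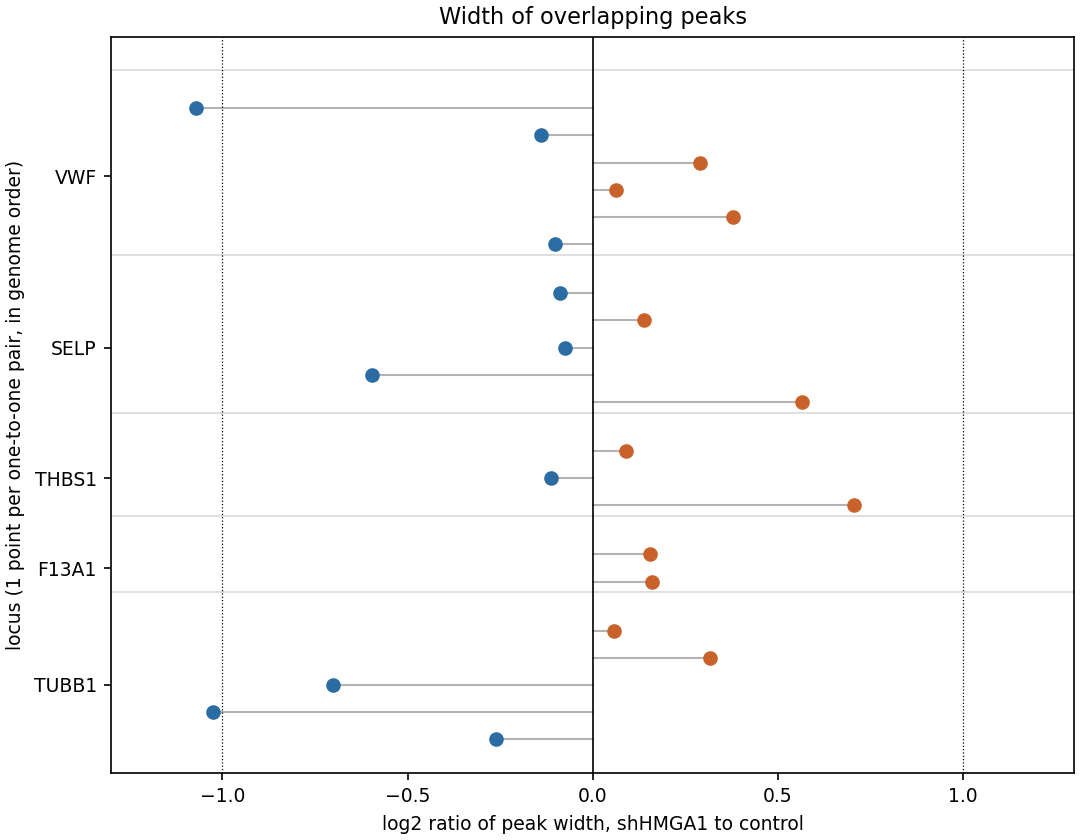
Log2 ratio of peak width, shHMGA1 to control (x axis), for the 21 one-to-one pairs, grouped by locus and in genome order within it (y axis). Points right of 0 are wider in shHMGA1 (11 pairs) and points left of 0 narrower (10 pairs); dotted lines mark a 2-fold difference, passed by 1 VWF and 1 TUBB1 pair.

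In most pairs the summits lay close together, as over all pairs of the lists. The summits of 19 of 21 pairs lay within 100 bp of each other (90.5%, against 83.6% of all pairs), with a median distance of 20 bp here and 20 bp over all pairs. The exceptions were the SELP pair at 169610975 and the TUBB1 pair at 57586272. In bases, 10682 bp were open in both lists, 65.5% of the 16311 bp open in either, near the 63.0% of the whole lists. That share was 81.4% at THBS1, 73.7% at VWF, 73.2% at SELP, 52.8% at TUBB1 and 38.5% at F13A1.

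**Figure D4:**
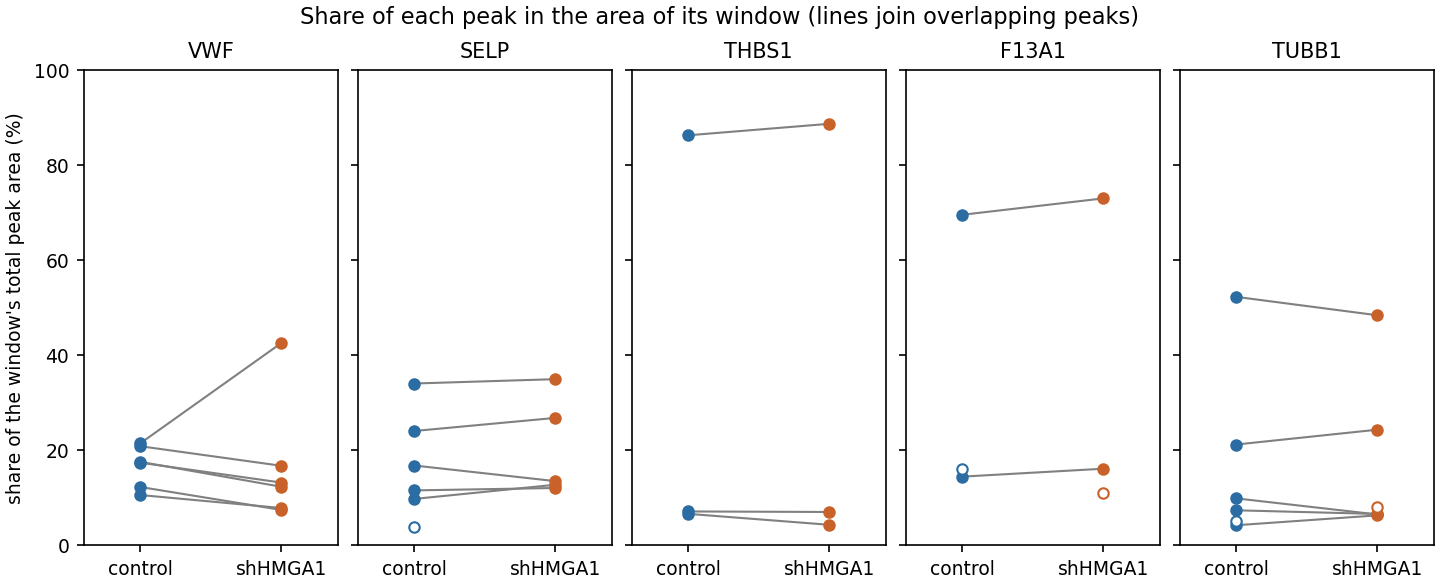
Share of each peak in the summed peak area of its window, in percent (y axis), in control and shHMGA1; lines join overlapping peaks and open points are unshared peaks. The steepest line is the VWF site beginning at 6163684 in control, at 21.4% and 42.6%, while the leading peaks of the other 4 windows held shares that were closer in the lists.

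The window ends mattered most at TUBB1. Shortening each window by 10 kb at both ends left 3 of its 6 peaks in each list, without its largest peak, its second largest and both unshared peaks. No member had its summit outside its window. The nearest peaks outside, within 20 kb of a window end, were a control-only peak from 169532316 to 169532740 beside SELP (area 708), and shared peaks beginning in control at 39917043 beside THBS1 (area 558) and at 57617293 beside TUBB1 (area 4041). VWF and F13A1 had no peak within 20 kb outside their windows in either list. Members lying wholly within 10 kb of a window end were the SELP site at 169610975 and, in the TUBB1 window, the sites at 57586272 and 57607000 with both unshared peaks. The TUBB1 site at 57589766 lay partly within it.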

How the data were processed

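ATAC-seq libraries of 6 samples (50000 cells each, 2 µl of Tn5, 45 min at 37 °C, per the labels' protocols) were represented by 1 peak list per group. Peaks were called with Genrich on hg19, per the submitters' processing notes. Aligner, filters, caller settings and pooling of samples were not given in the sources used here, nor was whether any SET-2 library was included. The deposited signal value is the area under the significance curve, the deposited summit value is an unadjusted −log10 p, and the deposited score is 1000 times area over width, capped at 1000. These values rank peaks within a list. Read depth is unknown.

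Sharing (at least 1 bp), one-to-one pairs, widths and gaps were computed with pandas 2.3.3, numpy 2.4.6 and scipy 1.17.1 under Python 3.11.15, and tested on simulated lists. Positions are 1-based. Named in each window were the largest peak by area, all unshared peaks and the extreme width ratios; other members are described because the windows hold few peaks. The members, windows and lists were chosen with earlier results of these data known. Other platelet genes were not located, as no hg19 annotation was used.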

Additional observations from a re-analysis of the deposited data

How the results depend on the processing

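Sharing was recomputed with 50% reciprocal overlap and with a distance limit of 500 bp, and the lists or windows were changed by a joined median summit −log10 p of 5.24 as a threshold, equal numbers of the 56305 most significant peaks per list, merging within 150 bp, assignment by summit, and windows widened by 20 kb or shortened by 10 kb. Of 74 recomputed totals over the 5 windows, 66 stayed within 1.5 times or within the interval of the value reported. Some could not move, since the sharing settings do not change peak numbers, in total or per locus, or their ratio. Merging and assignment by summit left every total unchanged, so the 66 overstates how stable the totals were. The 8 totals that moved were as follows. Reciprocal overlap left 66.7% of control and 69.6% of shHMGA1 peaks shared, and 8 control-only against 7 shHMGA1-only sites. No whole-list share under this rule was computed for comparison. The threshold left 14 shHMGA1 peaks, equal numbers left 14 control and 14 shHMGA1 peaks, and shortened windows left 1 shHMGA1-only peak. The threshold also took the control peaks from 24 to 16, which is at the limit of 1.5 times and was not counted as moved. Of these 16 control peaks, 12 were shared (75%) and 4 were control-only. Each of the 4 overlapped an shHMGA1 peak of the full list whose summit lay below the threshold. Those summits were 5.21 and 4.55 at VWF and 4.90 and 5.19 at TUBB1. Whole-list shares were not computed under the threshold or under equal numbers. Under the threshold and under equal numbers, VWF was no longer fully shared. Its site beginning at 6163744 in shHMGA1 counted as shHMGA1-only and the one at 6075131 in control as control-only. Under the threshold the VWF site at 6172402 in control was also control-only. In each case the overlapping peak of the other list was not kept. Of 160 values per locus, 35 moved by over 1.5 times. THBS1 and F13A1 fell from 3 peaks to 1 in both lists under the threshold and under equal numbers. TUBB1 fell from 6 peaks to 3 in both lists under equal numbers and shortened windows, and in the shHMGA1 list under the threshold; its shared peaks fell from 5 to 2 under the threshold and equal numbers. The median log2 width ratio was -0.01 under the threshold and equal numbers and -0.06 with widened windows, within its interval. No paired analysis was possible because a group's samples share 1 list, so leaving out a replicate could not be done either. Unknown depth limits every statement on peaks near the smallest area.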
